A study of Mus musculus with 16 samples.

Results

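The nuclear genes for the subunits of respiratory complexes II, III, IV and V, with the cytochromes c1 and c, were followed in naive CD4+ T cells (Tn) and in CD4+ T cells in Treg culture (Treg) of WT and Aim2-/- mice. They were taken from the known subunits by gene symbol, without the isoforms typical of other tissues, and they number 41 among the 53090 genes in each table. They comprise 4 genes of complex II, 10 of complex III and the cytochromes, 12 of complex IV and 15 of complex V. Every member passed the filter on low counts in every comparison, and the member with the lowest mean level in WT Tn, Uqcr11, stood at 22.4 CPM there, a count scaled to the size of its library.

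The study asked how the DNA sensor AIM2 bears on the stability of regulatory T cells. RNA was sequenced from 16 libraries, 4 in each of 4 groups, numbered 1 to 4 within a group. The WT Tn and Aim2-/- Tn groups were CD44 low, CD62L high CD4+ T cells taken by magnetic selection from the spleen and lysed without culture. The WT Treg and Aim2-/- Treg groups were CD4+ T cells kept for 48 h with anti-CD3 and anti-CD28 antibodies, recombinant human TGF-beta and recombinant mouse IL-2. All mice had the C57BL/6 background, the Aim2-/- mice were deficient in AIM2, and ages were given only as matched. The Treg groups are cells 2 days into differentiation and were not sorted for FOXP3, so that activation, cytokines and time in culture cannot be told apart in a contrast of Treg with Tn. It is not stated whether the libraries of a group came from separate mice or cultures, so the p-values measure the spread between these libraries, which may be technical.

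The libraries held 22516394 to 34533297 counts, of which the 41 genes took 0.484 to 0.615% in Tn and 0.866 to 0.952% in Treg. Aim2 stood at 32 to 43.7 CPM in the WT libraries and at 6.44 to 11 CPM in the Aim2-/- libraries, so that the groups did not overlap, although the gene was not at 0 in the knockout. The summed level of 5 T cell markers (Cd3e, Cd3d, Cd3g, Trac and Cd4) reached 2590 to 3280 CPM in Tn, and 1120 to 1260 CPM in Treg. That of 5 markers of Treg and activated cells (Foxp3, Il2ra, Ctla4, Tnfrsf4 and Ikzf2) lay at 28.1 to 99.9 CPM in Tn, and at 1860 to 2330 CPM in Treg. Ctla4 did not share this rise in Aim2-/- cells, with means of 71 CPM in Tn and 69.8 CPM in Treg. In WT its means were 47.3 and 73.6 CPM. Each of the marker lists of B, myeloid, NK and erythroid cells summed to at most 9.03 CPM in any library, and 2 CD8 markers to at most 12.1 CPM. The WT Tn libraries formed pairs: the chi-square of their counts per degree of freedom was 13.5 between libraries 1 and 2 and 11.5 between 3 and 4, but 73.3 to 94.2 across the pairs. The Aim2-/- Treg libraries did so less sharply, with 10.3 between 1 and 2, 13.6 between 3 and 4 and 21.6 to 49.5 across. The Treg and activation markers summed to 97.9 and 99.9 CPM in WT Tn 1 and 2, to 28.1 and 36.2 CPM in WT Tn 3 and 4, and to 84.3 to 96.7 CPM in Aim2-/- Tn. Within WT Tn, Ctla4 alone ran from 12.7 to 79.7 CPM and Tnfrsf4 from 5.28 to 12.6 CPM. Foxp3, Il2ra and Ikzf2 each stayed at 4.11 CPM or below there, so that the sums mainly follow Ctla4. The part of these splits in the results was not tested beyond the fits with a term parting replicates 1 and 2 from 3 and 4.

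The respiratory chain passes electrons from nutrients to oxygen and stores the energy as a proton gradient. Complex II, succinate dehydrogenase, is also an enzyme of the citric acid cycle and has only nuclear-encoded subunits. Complex III hands electrons through cytochrome c to complex IV, which reduces oxygen, and complex V, the ATP synthase, lets protons flow back and makes ATP. Complexes III, IV and V hold some subunits encoded in mitochondrial DNA, so that their assembly draws on both genomes. T cells make more mitochondria on activation, and oxidative metabolism is known to favour Treg cells.

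Promoters of these genes are known for sites of nuclear respiratory factor 1 (NRF1), of ETS factors such as GABP, and of YY1. Promoter windows from RefSeq on GRCm38.p6, each running from 250 bases before to 50 bases after a gene's start, were matched by symbol to 32 of the 41 genes. Sdhc, Uqcrb, Uqcrc2, Uqcrq, Cyc1, Cox4i1, Cox6c, Atp5a1 and Atp5f1 had no entry under their symbol. The letters GCGCATG for NRF1, CCGGAAG for ETS factors and AAGATGG for YY1 were searched on both strands. The ETS letters end with the bases that open the YY1 letters, so that both can lie in a single run. NRF1 letters were in the windows of 9 of the 32 genes (28.1%), against 4.41% of all 27025 genes with a window. ETS letters were in those of 12 (37.5%, against 9.93%) and YY1 letters in those of 3 (9.38%, against 7.28%). The base of these shares is every gene with a window, expressed in these cells or not, and it was not matched to the members in GC content. The matches are runs of letters and were not tested for binding.

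The 150 bases before the start are shown for the genes at the ends of the range in culture, Cycs and Cox5a with the largest rises before any GC and length correction, and Cox7a2l and Uqcrh, which fell. Each reads 5′ to 3′ on the strand of the gene, and capitals mark a match to any of the 3 motifs. Cycs lies at chr6:50566570-50566719 on the minus strand, Cox5a at chr9:57521082-57521231 on the plus strand, Cox7a2l at chr17:83514334-83514483 on the minus strand and Uqcrh at chr4:116075071-116075220 on the minus strand. In GENCODE M21 the stretch for Cycs also overlaps an exon of an antisense transcript, 5430402O13Rik, that for Uqcrh shares 1 base with the first exon of Uqcrh itself, and the other stretches overlap no exon. The Cox7a2l stretch lies within the span of Cox7a2l there (chr17:83501918-83517330), so that it precedes a start inside the gene. No window was searched at the outer end of that span.
Cycs: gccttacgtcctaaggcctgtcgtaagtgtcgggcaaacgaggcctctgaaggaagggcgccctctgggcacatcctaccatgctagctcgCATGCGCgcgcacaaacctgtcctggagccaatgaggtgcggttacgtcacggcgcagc
Cox5a: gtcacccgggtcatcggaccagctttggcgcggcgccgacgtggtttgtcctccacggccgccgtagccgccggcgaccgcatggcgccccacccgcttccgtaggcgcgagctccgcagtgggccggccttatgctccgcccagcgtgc
Cox7a2l: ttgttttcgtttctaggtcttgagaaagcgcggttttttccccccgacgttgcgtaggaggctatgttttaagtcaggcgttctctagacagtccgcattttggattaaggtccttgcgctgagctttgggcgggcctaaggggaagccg
Uqcrh: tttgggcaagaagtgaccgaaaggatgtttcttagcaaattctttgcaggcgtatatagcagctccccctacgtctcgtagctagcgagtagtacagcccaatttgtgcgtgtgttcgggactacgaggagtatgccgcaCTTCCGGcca
The Cycs stretch held the NRF1 letters, on the opposite strand, 53 to 59 bases before the start. The Uqcrh stretch held the ETS letters, also on the opposite strand, 4 to 10 bases before the start. Neither Cox5a, which rose, nor Cox7a2l, which fell, had a match in its whole window.

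The subunit genes as a group were higher in Treg than in Tn. In a bulk library, fewer cells of a type and less RNA per cell cannot be told apart, and every level is relative to the other genes of the library. In levels summed over genes as CPM, complex V had 2490 ± 115 CPM in WT Tn and 5130 ± 139 in WT Treg (SD, n = 4 in each), a ratio of 2.06. Complex II stood at 374 ± 22.5 in WT Tn and 651 ± 13.8 in WT Treg, a ratio of 1.74. The genes of complex III and the cytochromes stood at 759 ± 44.9 and 1350 ± 55.4, a ratio of 1.78. For these 3 sums the Treg libraries lay above all Tn libraries of both genotypes. Abundant genes weigh most in such sums. In complex V, Atp5b and Atp5a1 had means of 644 and 571 CPM in WT Tn and of 1670 and 1200 CPM in WT Treg. Within the sum of complex III, Uqcrh fell from 230 to 171 CPM. The order of the ratios is therefore not that of the single genes. Their median log2 fold change in WT was highest for complex III and the cytochromes (1.10).

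Complex IV showed the smallest ratio, 1.26, with 1400 ± 76.2 CPM in WT Tn and 1760 ± 35.8 in WT Treg. A single gene, Cox7a2l, made up 36.4% of that sum in WT Tn and 9.81% in WT Treg. Without it the sum was 887 ± 34.4 in WT Tn and 1580 ± 40.7 in WT Treg, a ratio of 1.79. The Aim2-/- libraries gave ratios of 1.76 for complex II, 1.75 for complex III and the cytochromes, 1.19 for complex IV and 2.08 for complex V. Leaving out Cox7a2l brought the complex IV ratio in Aim2-/- cells to 1.65.

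**Figure D1:**
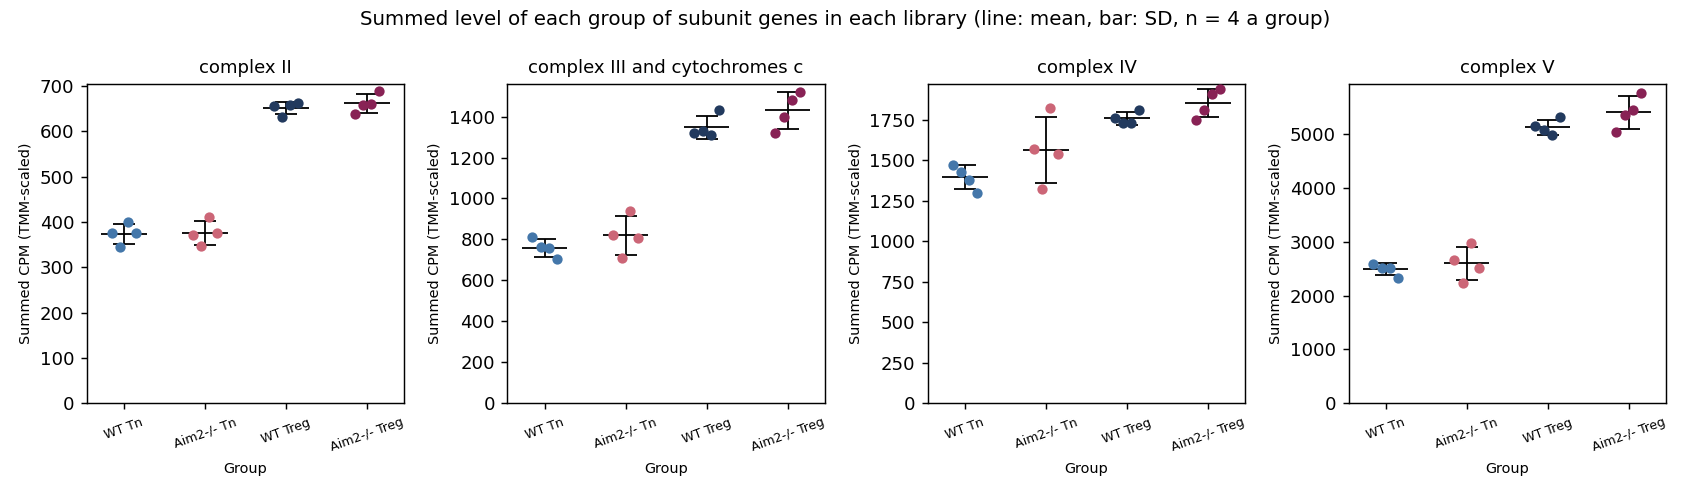
Summed TMM-scaled CPM of the genes of each complex (vertical axis, starting at 0) in each of the 16 libraries, by group, with a line at the mean and a bar for the SD (n = 4). The Treg libraries lie above all Tn libraries for complexes II, III and V, whereas for complex IV the Aim2-/- Tn library 3, at 1820 CPM, lies within the range of the Treg libraries.

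Between WT Tn and WT Treg, 37 of the 41 genes rose and 2 fell at an adjusted p below 0.05 (quasi-likelihood F test of edgeR, p-values adjusted over all genes by the Benjamini-Hochberg method). This contrast moved most of the transcriptome: 76.9% of 13675 genes passed the test, 37.7% upward and 39.2% downward. The median log2 fold change of the 41 genes was 0.81, against -0.05 for all genes tested. Between Aim2-/- Tn and Aim2-/- Treg, 35 rose and 2 fell, where 79.3% of 13713 genes passed (39.1% upward, 40.2% downward), and the median was 0.76 against -0.04. The 37 genes that passed in Aim2-/- cells also passed in WT. The libraries of Tn and Treg did not overlap for 37 higher and 2 lower genes in WT, where 37.9% and 35% of all genes were so, and for 35 and 2 in Aim2-/-, where 38.5% and 36.3% were. A rise over 2-fold was seen in 15 genes in WT and in 13 in Aim2-/- cells. The smallest of these rises in WT, that of Atp5a1, was above the value of 77.6% of all genes tested. In Aim2-/- cells the smallest, that of Atp5f1, was above 77.2%.

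**Figure D2:**
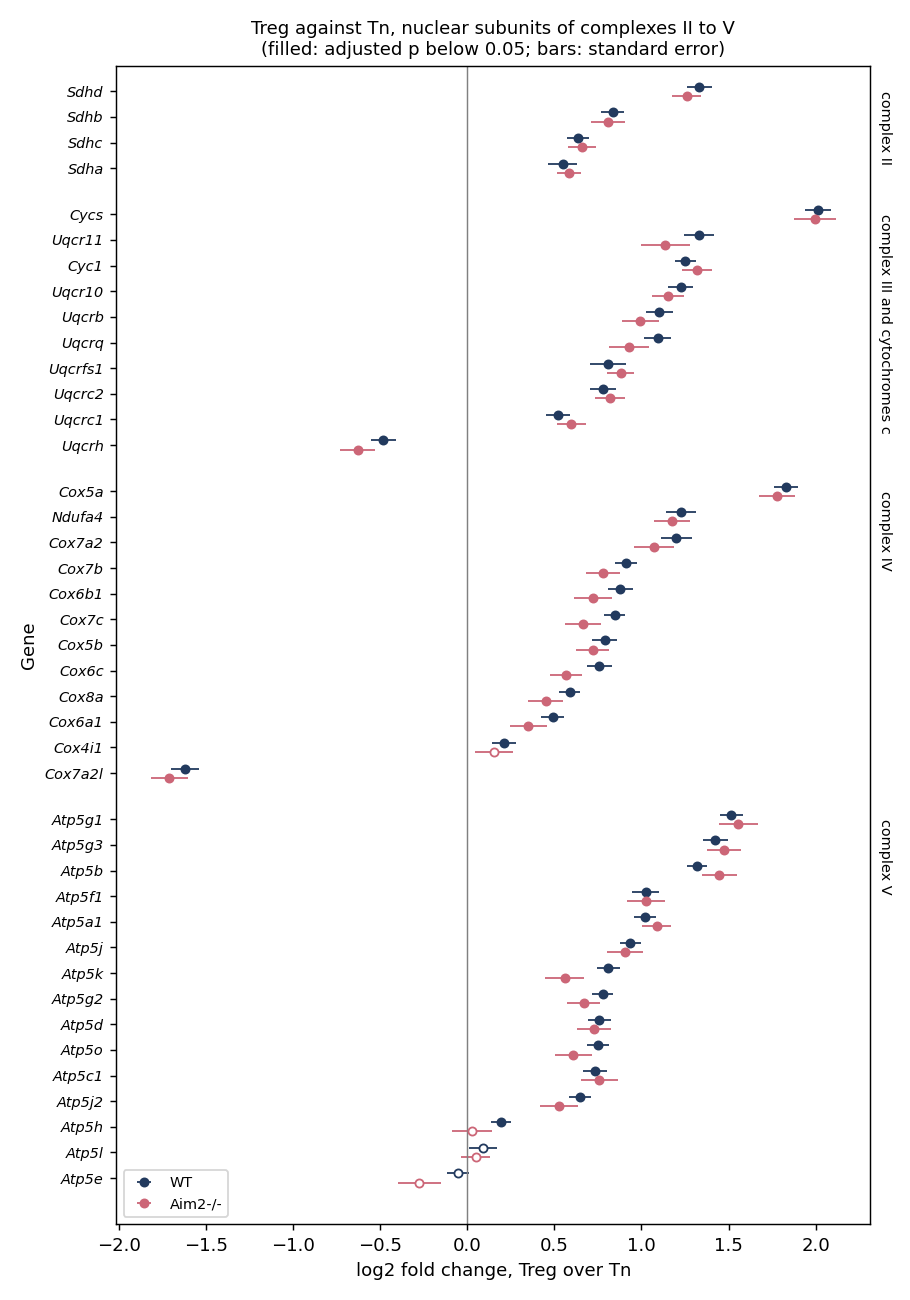
log2 fold change of Treg over Tn (horizontal axis) for each of the 41 genes, in WT and in Aim2-/- cells, grouped by complex; filled points have an adjusted p below 0.05, and bars are the standard error. Most points lie between 0.5 and 1.5, with Cycs, Cox5a and Atp5g1 above and with Cox7a2l, Uqcrh and, as open points, Atp5e below 0 in both genotypes.

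All 4 genes of complex II rose, with a median log2 fold change of 0.74 in WT and 0.73 in Aim2-/- cells. Sdhd, a membrane anchor of the enzyme, had the smallest p of the complex in both genotypes. Its level was 51.7, 47.7, 51.5 and 43.8 CPM in WT Tn (libraries 1 to 4) and 132, 124, 124 and 129 in WT Treg. The Aim2-/- Tn libraries had 49.5, 51.1, 58.3 and 53.8 CPM, and the Aim2-/- Treg libraries 126, 130, 128 and 146 CPM. Each Treg library was thus above 2 times every Tn library. Sdhd rose by 1.33 ± 0.07 on the log2 scale in WT (± SE, adjusted p = 1.5e-07) and by 1.26 ± 0.08 in Aim2-/- cells (adjusted p = 7.9e-08). Sdhb, the iron-sulfur subunit, rose by 0.83 and 0.81 in WT and Aim2-/- cells. Sdhc, the other anchor, rose by 0.64 and 0.66. Sdha, the flavoprotein that binds succinate, rose least, by 0.55 and 0.59.

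Of the 10 genes of complex III and the cytochromes, 9 rose and Uqcrh fell in both genotypes (median 1.10 in WT and 0.96 in Aim2-/- cells). Cycs encodes somatic cytochrome c, the mobile carrier between complexes III and IV that also triggers the apoptosome once released. Its level was 57.3, 55.3, 55.7 and 52.1 CPM in WT Tn and 215, 225, 224 and 259 in WT Treg. In Aim2-/- cells, Cycs stood at 57.8, 53.1, 71.8 and 59.9 CPM in Tn and at 211, 237, 279 and 279 in Treg. No Treg library came near the highest Tn library, Aim2-/- Tn 3. The rise of Cycs was the largest of the 41 genes, 2.01 ± 0.07 in WT (4.04-fold, adjusted p = 1.3e-08) and 2.00 ± 0.12 in Aim2-/- cells (adjusted p = 3.8e-08). Of the 51-base words in Cycs transcripts, 25.2% also occur in Gm10053, which was at 5.63 CPM in WT Tn and 17.4 CPM in WT Treg, and with all rows that share such words added to Cycs the WT rise was 1.98 ± 0.08.

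Cyc1, cytochrome c1, rose by 1.25 in WT and 1.32 in Aim2-/- cells. The small subunits of complex III followed with Uqcr11 at 1.33 and 1.14, Uqcr10 at 1.23 and 1.16, Uqcrb at 1.10 and 0.99 and Uqcrq at 1.09 and 0.93. With a GC and length correction Uqcr11 rose by 1.83 and 1.79, second to Cycs. Without that correction, 3 larger subunits rose less than Cyc1 and the small ones. These were the Rieske iron-sulfur protein Uqcrfs1 (0.81 and 0.88) and the core proteins Uqcrc2 (0.78 and 0.82) and Uqcrc1 (0.52 and 0.60). Uqcrc1 is listed under 2 identifiers in the tables, and the second entry had the same mean level, 66.1 CPM in WT Tn, so that reads common to both may be divided between the entries. The sum of both gave the same log2 fold changes.

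Uqcrh encodes the hinge protein that bridges cytochromes c1 and c. It was at 249, 244, 219 and 209 CPM in WT Tn and at 169, 167, 170 and 178 in WT Treg. In the knockout groups Uqcrh was at 268, 216, 308 and 254 in Tn and at 170, 170, 187 and 175 in Treg. The lowest Tn library was above the highest Treg library, the reverse of the order of the other 9 genes. Uqcrh fell by 0.48 on the log2 scale in WT (SE 0.07, adjusted p = 0.00016) and by 0.63 in Aim2-/- cells (SE 0.10, adjusted p = 0.00014).

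In complex IV, 11 of 12 genes rose in WT and 10 in Aim2-/- cells, while Cox7a2l fell (median 0.82 and 0.69). Cox5a, a structural subunit on the matrix side, had the smallest p. Its level was 48.2, 45.9, 48.7 and 48.1 CPM in WT Tn and 163, 170, 185 and 186 in WT Treg. For Aim2-/- cells the values were 48.8, 47.9, 63 and 51.8 in Tn and 171, 179, 198 and 205 in Treg. Tn and Treg were separated by a wide gap, with WT Tn libraries within 3 CPM of each other. Cox5a rose by 1.83 ± 0.07 in WT (3.55-fold, adjusted p = 1.3e-08) and by 1.78 ± 0.11 in Aim2-/- cells (adjusted p = 3.3e-08).

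Ndufa4, first purified with complex I and now counted in complex IV, rose by 1.23 in WT and 1.18 in Aim2-/- cells. Cox7a2, the general form of subunit VIIa, rose by 1.20 and 1.07. A middle range was taken by Cox7b (0.91 and 0.78), Cox6b1 (0.88 and 0.72), Cox7c (0.85 and 0.67), the zinc-binding subunit Cox5b (0.79 and 0.72) and Cox6c (0.76 and 0.57). The smallest rises were those of Cox8a (0.59 and 0.45), Cox6a1 (0.49 and 0.35) and Cox4i1 (0.21 in WT, adjusted p = 0.02). After a GC and length correction of the counts Cox8a rose by 1.10 in both genotypes and Cox6a1 by 0.90 and 0.95, so that both left the low end of the range. Cox4i1, the general form of subunit IV, did not pass in Aim2-/- cells, with 0.15 ± 0.11 and an adjusted p of 0.21. Its WT rise was 0.16 (adjusted p = 0.051) without WT Tn 4, and with that correction it rose by 0.42 in WT and by 0.51 in Aim2-/- cells (adjusted p = 0.00025). The rise of Cox6a1 in Aim2-/- cells did not pass without Aim2-/- Tn 1, 2 or 4 (0.28, 0.23 and 0.27).

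Cox7a2l is related to subunit VIIa and is known for joining complexes III and IV into supercomplexes. Whether Cox7a2l has that function in the mouse strain used here was not tested. In WT Tn it was at 552, 540, 490 and 457 CPM and in WT Treg at 185, 173, 168 and 162. Aim2-/- Tn libraries had 584, 453, 615 and 533 CPM of Cox7a2l, and Aim2-/- Treg libraries had 187, 180, 170 and 156. The lowest Tn library was above 2 times the highest Treg library. Cox7a2l fell by 1.62 on the log2 scale in WT (SE 0.08, adjusted p = 7.8e-08) and by 1.71 in Aim2-/- cells (SE 0.11, adjusted p = 5.5e-08). Lengths were those of all annotated exons of a gene, which can exceed the transcript expressed, so that levels per length are rough. Per kilobase of exon, it had the highest level of the 41 genes in WT Tn (345 CPM per kb), ahead of Uqcrh (186). It stood at 116 in WT Treg, where Atp5b (394) and Atp5a1 (383) led. The genes that fell in culture led on this scale in WT Tn, but Uqcrh was close to Atp5a1 (182), which rose. A processed pseudogene, Gm6969, holds 13.7% of the 51-base words of Cox7a2l and had a mean of at most 0.608 CPM in any group.

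**Figure D3:**
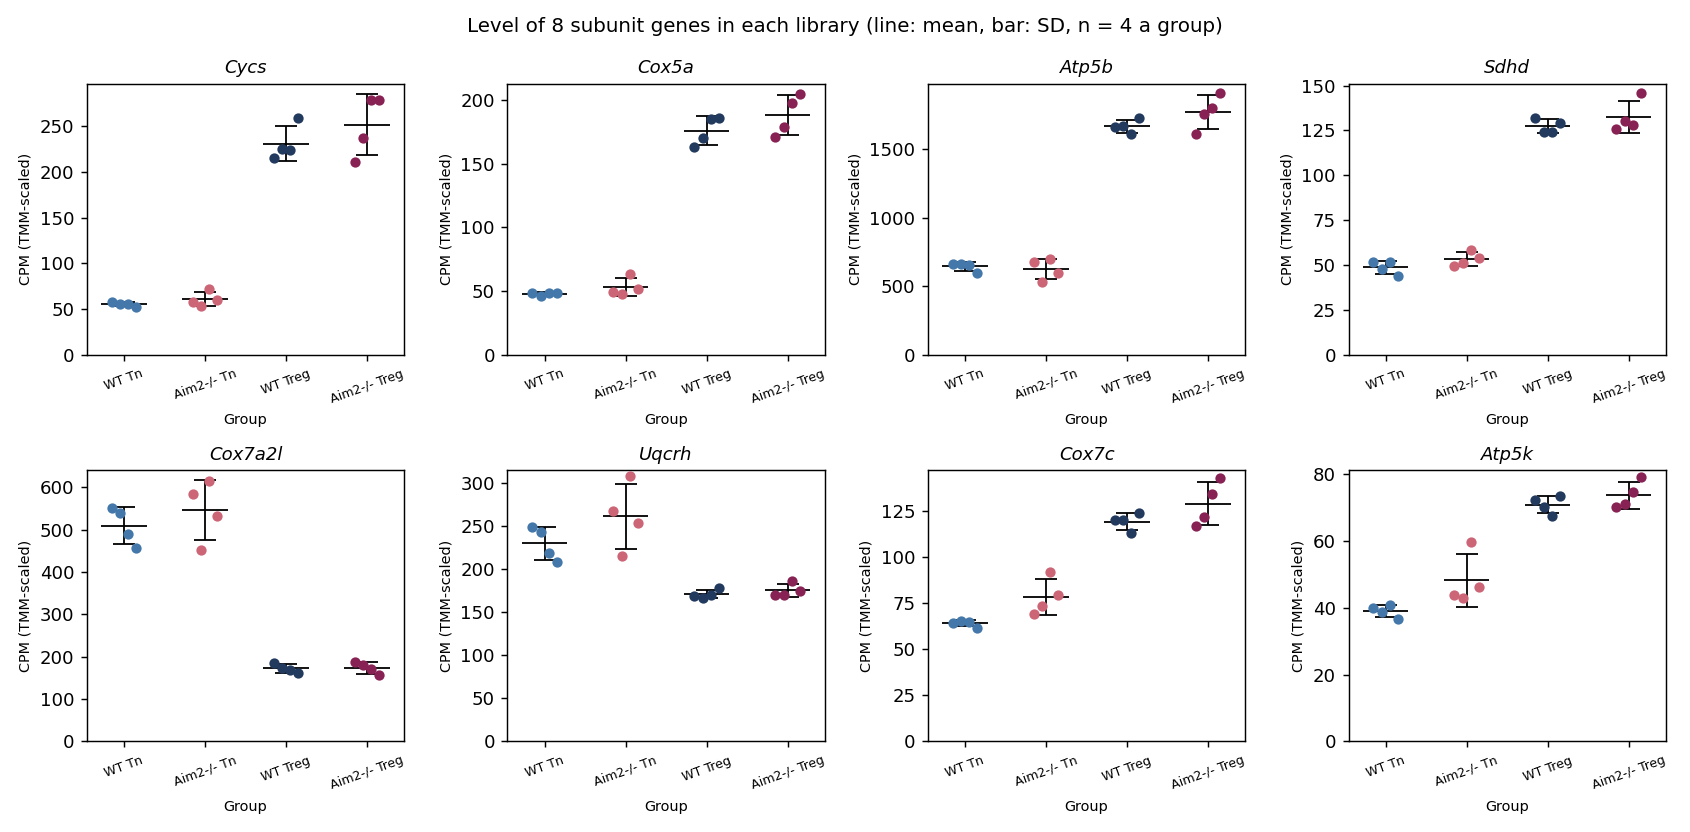
Level of 8 genes in each library (vertical axes, TMM-scaled CPM, starting at 0) by group, with a line at the mean and a bar for the SD (n = 4). Cycs, Cox5a, Atp5b and Sdhd are higher in every Treg library and Cox7a2l and Uqcrh lower; for Cox7c and Atp5k the Aim2-/- Tn libraries also lie above the WT Tn libraries.

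In complex V, 13 of 15 genes rose in WT and 12 in Aim2-/- cells, and none fell (median 0.78 and 0.73). The catalytic head was led by Atp5b, the beta subunit, which had the highest CPM of all members in WT Treg. Atp5b stood at 665, 665, 652 and 596 CPM in WT Tn and at 1660, 1670, 1610 and 1730 in WT Treg. In Aim2-/- cells it stood at 675, 530, 695 and 598 in Tn and at 1610, 1760, 1800 and 1910 in Treg. The states did not overlap in either genotype. Atp5b rose by 1.32 ± 0.06 in WT (adjusted p = 2.8e-08) and by 1.45 ± 0.10 in Aim2-/- cells (adjusted p = 1.3e-07). Of the other subunits of the head, Atp5a1 (alpha) rose by 1.02 and 1.09, Atp5c1 (gamma) by 0.74 and 0.76, and Atp5d (delta) by 0.76 and 0.73. Atp5e, the epsilon subunit, did not pass, at -0.05 ± 0.06 in WT (adjusted p = 0.46) and -0.28 ± 0.12 in Aim2-/- cells (adjusted p = 0.058). In Aim2-/- cells it passed, as lower in Treg, under 11 of 21 other settings, among them leaving out any 1 of the Aim2-/- Tn libraries, which gave values between -0.41 and -0.18.

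The genes of the peripheral stalk also rose in WT. Atp5f1 (subunit b) rose by 1.02 and 1.03 in WT and Aim2-/- cells, Atp5j (coupling factor 6) by 0.94 and 0.91, and Atp5o, the subunit that confers oligomycin sensitivity, by 0.75 and 0.61. Atp5h (subunit d) rose by 0.19 in WT (adjusted p = 0.011) and was at 0.03 ± 0.12 in Aim2-/- cells (adjusted p = 0.85). The WT value of Atp5h was 0.14 (adjusted p = 0.063) without WT Tn 2 and 0.12 with the GC and length correction (adjusted p = 0.08, or 0.12 with the replicate block added), so that the call was lost in each. Among the small membrane subunits, Atp5k (subunit e) rose by 0.81 and 0.56 and Atp5j2 (subunit f) by 0.65 and 0.53, and with the GC and length correction Atp5k rose by 1.28 and 1.14. Atp5l (subunit g), which with subunit e holds ATP synthase dimers together, did not pass in either genotype (0.09 ± 0.08 and 0.05 ± 0.08). Its processed pseudogene Gm10221 was listed at 37.5 CPM in WT Tn and 52 CPM in WT Treg, and the sum of Atp5l with all rows that share its words changed by 0.10 ± 0.10 in WT.

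The c subunit, which forms the rotating ring in the membrane, is encoded by Atp5g1, Atp5g2 and Atp5g3, whose mature proteins are known to be identical. Atp5g1 was at 57.1, 59.3, 57 and 51.9 CPM in WT Tn and at 168, 165, 162 and 174 in WT Treg. In the knockout groups Atp5g1 was at 64.5, 49.6, 69.5 and 58.1 in Tn and at 165, 177, 189 and 207 in Treg. With a log2 fold change of 1.51 ± 0.07 in WT and 1.56 ± 0.11 in Aim2-/- cells (adjusted p = 3.1e-08 and 1.5e-07), it had the third largest rise of the 41 genes in each genotype. With the GC and length correction its values were 1.36 and 1.37, below Cycs, Cox5a, Uqcr11, Uqcr10 and Cyc1 in both.

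Atp5g3 was at 106, 95.5, 104 and 91.8 CPM in WT Tn and at 273, 270, 272 and 291 in WT Treg. Knockout cells had Atp5g3 at 95.6, 98.3, 122 and 104 CPM in Tn and at 275, 298, 301 and 339 in Treg. It rose by 1.43 ± 0.07 in WT and by 1.47 ± 0.10 in Aim2-/- cells (adjusted p = 6.2e-08 and 9.6e-08), close to Atp5g1. Atp5g2 was at 139, 130, 141 and 133 CPM in WT Tn and at 250, 242, 231 and 243 in WT Treg. Knockout cells had Atp5g2 at 158, 124, 171 and 151 in Tn and at 249, 248, 241 and 258 in Treg. It rose by 0.78 ± 0.06 and 0.67 ± 0.10 (adjusted p = 1.7e-06 and 5.2e-05), less than the other c-subunit genes.

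The share of each gene in their common CPM moved accordingly. Atp5g2 held 46.6 ± 1.13% in WT Tn and 35.3 ± 0.832% in WT Treg, and 47.6 ± 1.66% and 33.9 ± 1.74% in Aim2-/- cells (SD, n = 4). Atp5g3 held 34 ± 0.865% in WT Tn and 40.4 ± 0.748% in WT Treg, and so took the first place from Atp5g2. Atp5g1 held 19.3 ± 1.01% and 24.4 ± 0.12% in WT. Per kilobase of exon, the Atp5g2 share was 58.7% in WT Tn and 47.3% in WT Treg, so that it kept the first place on that scale. Of the 51-base words of Atp5g2, 36.7% also occur in the pseudogene Gm10175, which had a mean of at most 4.21 CPM in any group.

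**Figure D4:**
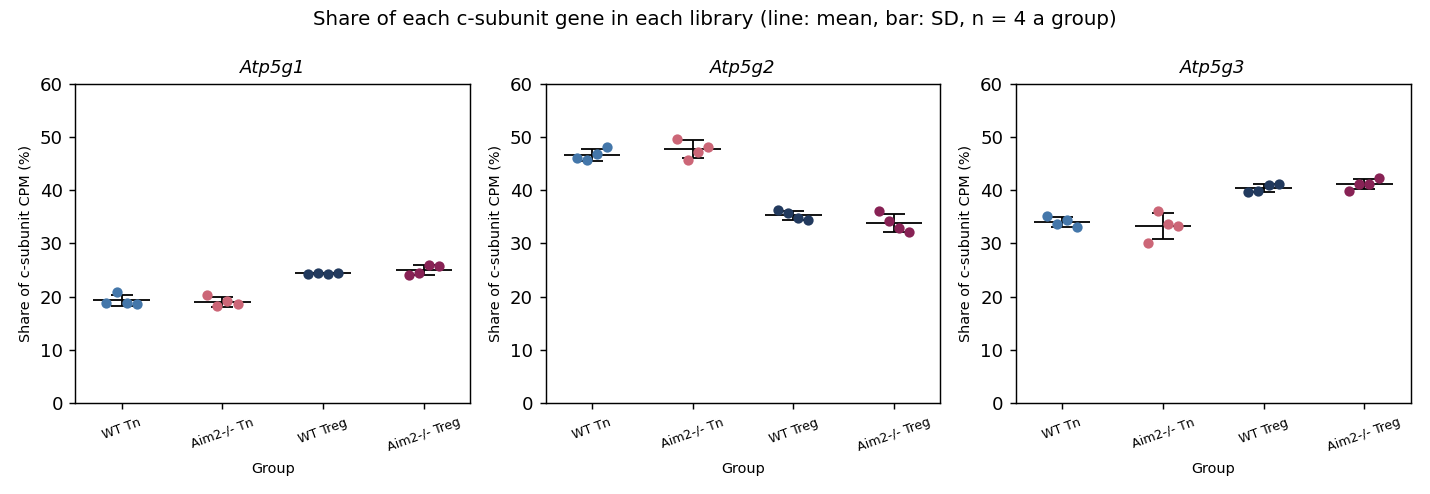
Share of Atp5g1, Atp5g2 and Atp5g3 in their summed CPM (vertical axes, percent, starting at 0) in each library by group, with a line at the mean and a bar for the SD (n = 4). In both genotypes the Atp5g2 share is lower, and the shares of the other 2 genes higher, in each Treg library than in each Tn library.

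Genes that build or serve the same complexes were more mixed. The counts of the lists below stand against all genes tested, of which 37.7% rose and 39.2% fell in WT. In Aim2-/- cells the shares were 39.1% and 40.2%. A list whose counts lie near those shares does not stand apart from the other genes. Of 22 tested assembly factors of complex IV, 11 rose and 5 fell in WT (13 and 6 in Aim2-/- cells; median 0.43 and 0.48). The copper chaperone Cox17 changed most, by 2.18 ± 0.10 and 2.07 ± 0.11. Of 6 assembly factors of complex III, 2 rose and 1 fell in WT (1 and 1 in Aim2-/- cells; median 0.05 and 0.06), with Uqcc2 at 1.29 ± 0.09 in WT and Uqcc3 at -1.30 ± 0.14 in Aim2-/- cells. Of 4 assembly factors of complex II, 1 rose and 1 fell in WT (1 and 2 in Aim2-/- cells; median 0.13 and -0.18), and Sdhaf4 fell by 0.63 and 0.84. All 3 assembly factors of complex V rose (median 0.77 and 1.10), led by Tmem70 with 1.18 ± 0.15 and 1.14 ± 0.16.

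Atpif1, the inhibitor that stops complex V from running backwards, rose by 2.23 ± 0.09 in WT and 2.25 ± 0.14 in Aim2-/- cells, more than any of the 41 subunit genes. Of 3 further complex V subunits and associated proteins, 2 rose and 1 fell in both genotypes (median 0.42 and 0.36), with Usmg5 at 0.87 ± 0.21 and 0.94 ± 0.10. Hccs, which attaches heme to the cytochromes c, rose by 1.29 ± 0.10 and 1.45 ± 0.09. Of the supercomplex factors, Higd1a rose by 1.15 ± 0.09 and 1.04 ± 0.12, and Higd2a fell by 0.73 and 0.80. Of 6 carriers and channels of ATP export, 5 rose in WT and 6 in Aim2-/- cells (median 1.63 and 1.72), led by the outer membrane channel Vdac1 with 2.20 ± 0.06 and 2.25 ± 0.10.

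Of 36 nuclear subunits of complex I, 29 rose and 2 fell in WT and 26 rose and 5 fell in Aim2-/- cells (median 0.69 and 0.60), with Ndufa12 at 2.00 ± 0.09 and 1.86 ± 0.14. Of 11 tested regulators of mitochondrial genes, 4 rose and 3 fell in WT and 4 rose and 5 fell in Aim2-/- cells (median 0.04 and 0.08), and Myc moved most with 1.81 ± 0.20 and 1.74 ± 0.09. Only 1 of 8 isoform genes of other tissues was expressed enough to be tested, Cox7a1, at 1.57 ± 0.42 in WT (adjusted p = 0.007) and 0.56 in Aim2-/- cells (adjusted p = 0.14). The 6 subunits of complexes III to V encoded in mitochondrial DNA did not follow the nuclear ones: none rose and 2 fell in each genotype (median -0.23 and -0.24), and mt-Co2 fell by 1.37 in WT (SE 0.33) and by 1.47 in Aim2-/- cells (SE 0.45). The libraries were made from mRNA selected by its tail, and mt-Co3 ran from 0.101 to 93.2 CPM within WT Tn, so these levels are uncertain.

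Between Aim2-/- and WT Tn, none of the 41 genes passed the test with edgeR's quasi-likelihood test, where 0.231% of 13441 genes did. DESeq2, limma-voom and the other settings tried also called none. At an unadjusted p below 0.05 there were 6 genes (Uqcrq, Uqcr11, Cox6c, Cox7c, Cox8a and Atp5k), all higher in Aim2-/- Tn, where 5.59% of all genes were higher at that p. The log2 fold change was above 0 for 37 of the 41 genes, against 52.7% of all genes, and the median was 0.17 against 0.01. These 41 genes are correlated within a library, so that their number is no number of independent observations. All 12 genes of complex IV were above 0 (median 0.22), as were 9 of 10 of complex III and the cytochromes (0.18), 14 of 15 of complex V (0.16) and 2 of 4 of complex II (0.06). Outside the 41 genes, all 36 nuclear subunits of complex I were above 0 as well (0.22).

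In complex IV the smallest p was that of Cox7c. It was at 64, 65.5, 64.8 and 61.7 CPM in WT Tn and at 69.1, 73.2, 91.7 and 79.2 in Aim2-/- Tn. The groups did not overlap, and Aim2-/- Tn 3 was the highest. Its difference was 0.31 ± 0.10 on the log2 scale (adjusted p = 0.39). Cox8a and Atp5k were the other genes whose Aim2-/- libraries all lay above the WT libraries, as 3% of all genes did. Atp5k was at 39.8, 38.6, 40.7 and 36.7 CPM in WT Tn and at 43.8, 42.8, 59.8 and 46.2 in Aim2-/- Tn, a difference of 0.33 ± 0.11 (adjusted p = 0.42).

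In complex III the smallest p was that of Uqcrq, a small subunit next to cytochrome b. Uqcrq was at 30.9, 31.3, 30.4 and 29.5 CPM in WT Tn and at 38.6, 30.6, 44.2 and 35 in Aim2-/- Tn, so that the groups overlapped through 1 library. Its difference was 0.30 ± 0.11 (adjusted p = 0.42). In complex II, Sdhd had the smallest p, with the levels given above and a difference of 0.15 ± 0.09 (adjusted p = 0.58).

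Single libraries carried much of this difference. Aim2-/- Tn 3 was the highest of the 8 Tn libraries for 37 of the 41 genes, WT Tn 4 was the lowest for 19, and Aim2-/- Tn 2 was the lowest for 13. Without Aim2-/- Tn 3 the median was 0.10 and 2 genes had an unadjusted p below 0.05. Without WT Tn 4 the median was 0.14 with 2 such genes, and without Aim2-/- Tn 2 it was 0.21 with 19. Correcting the counts for the GC content and length of genes gave a median of 0.11 with 4 such genes, and Atp5k was then at 0.19, Uqcrq at 0.21 and Sdhd at 0.05. With all 16 libraries in one fit there were 18 such genes, and with a term parting replicates 1 and 2 from 3 and 4 there were 10. The share of all genes at that p was not counted under these other settings. Their counts therefore cannot be told apart from a shift over all genes. The summed level of 5 erythroid markers was 1.22 to 3.96 CPM in WT Tn and 5.11 to 7.78 CPM in Aim2-/- Tn, and that of 5 B cell markers, of which 1 was at 0, was 1.54 to 2.09 and 2.42 to 3 CPM. Their part in the difference was not tested.

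Between Aim2-/- and WT Treg, again none of the 41 genes passed with edgeR's quasi-likelihood test (0.219% of 13221 genes did), and none had an unadjusted p below 0.05 (2.31% of all genes did). DESeq2 gave 0 adjusted calls and 1 gene at an unadjusted p below 0.05. The log2 fold change was above 0 for 38 of 41 genes, against 50.1% of all genes, but it was small, with a median of 0.06 against 0 and a highest value of 0.13. With the GC and length correction 32 genes were above 0 and the median was 0.03. Aim2-/- Treg 4 was the highest of the 8 Treg libraries for 28 of the 41 genes and Aim2-/- Treg 3 for 9. Libraries 3 and 4 of Aim2-/- Treg were also a pair by the chi-square of their counts, as given above. Without Aim2-/- Treg 1 there were 8 genes at an unadjusted p below 0.05, and without WT Treg 4 there were 2. The term parting replicates 1 and 2 from 3 and 4 gave 4. As in Tn, the share of all genes at that p was not counted under these other settings.

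Cox5b was the only member whose Aim2-/- Treg libraries (107, 111, 121 and 111 CPM) all lay above the WT Treg libraries (98.7, 105, 102 and 105), as 1.38% of all genes did. Its difference was 0.12 ± 0.05 (adjusted p = 1). The other smallest p-values belonged to Cyc1 in complex III, Atp5g1 in complex V and Sdhb in complex II. Cyc1 was at 165, 161, 164 and 171 CPM in WT Treg and at 166, 174, 185 and 198 in Aim2-/- Treg, which overlap (0.12 ± 0.06, adjusted p = 1). Sdhb was at 139, 137, 139 and 150 CPM in WT Treg and at 136, 147, 158 and 159 in Aim2-/- Treg (0.07 ± 0.06, adjusted p = 1). Atp5g1, with the levels given above, differed by 0.13 ± 0.07 (adjusted p = 1).

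**Figure D5:**
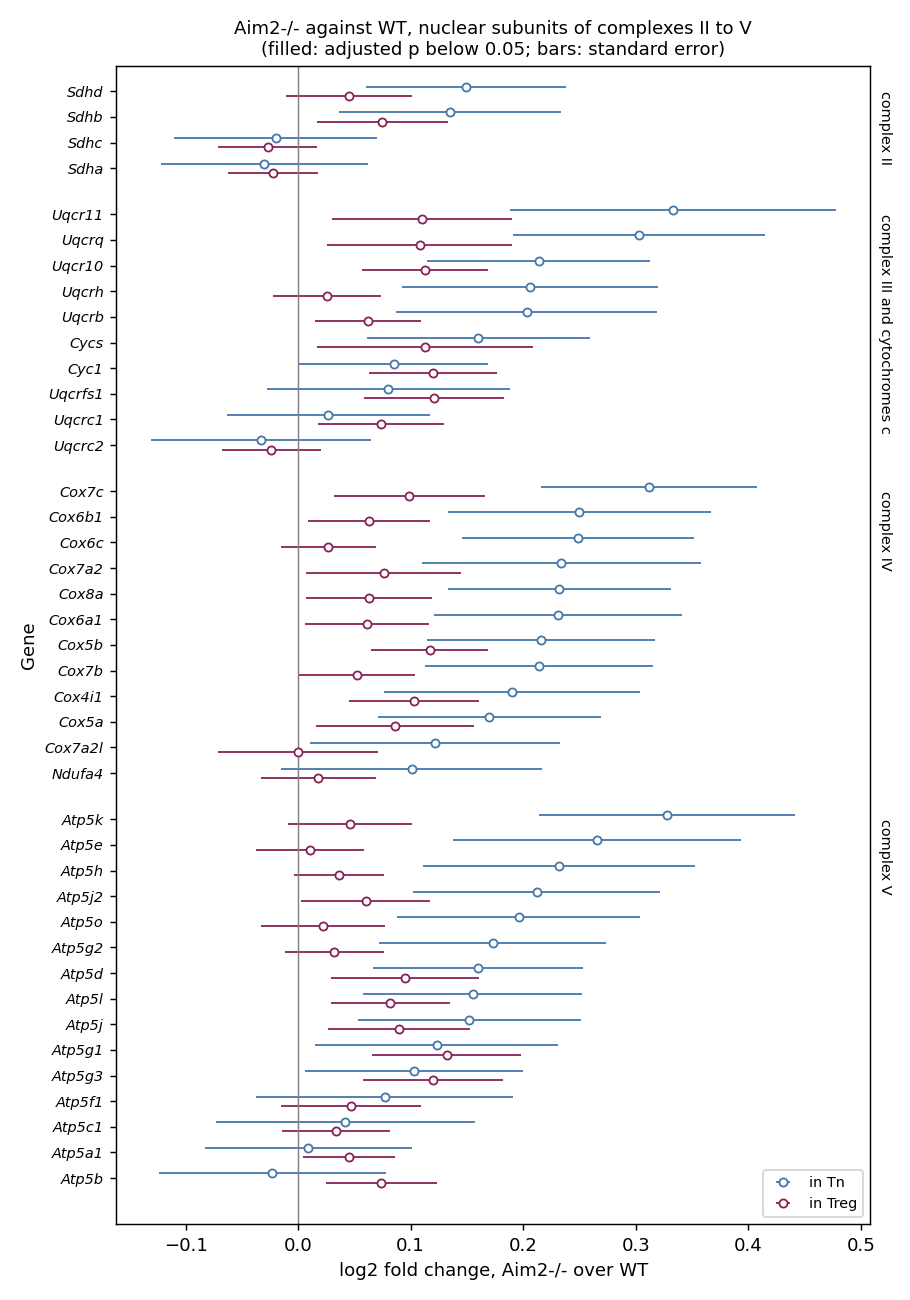
log2 fold change of Aim2-/- over WT (horizontal axis) for each of the 41 genes, in Tn and in Treg, grouped by complex; open points have an adjusted p of 0.05 or more, and bars are the standard error. All points are open, most lie above 0, and those in Tn spread further (up to 0.33) than those in Treg (up to 0.13).

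Whether the genotype difference itself differed between Treg and Tn was tested as an interaction over all 16 libraries. None of the 41 genes passed with edgeR's quasi-likelihood test (0.0205% of 14669 genes did) and none had an unadjusted p below 0.05 (3.49% of all genes did), with 0 adjusted calls by DESeq2 as well. The value was below 0 for 30 of the 41 genes, including all 12 of complex IV (median -0.15), a smaller difference in Treg than in Tn for each of them, though not past the test. The nuclear subunits of complex I went the same way, with 1 of 36 above 0 (median -0.16). The median of the 41 genes was -0.09, against 0 for all genes tested. It was -0.02 without Aim2-/- Tn 3 and -0.04 with the GC and length correction.

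Atp5k had the smallest p of all (-0.27 ± 0.13, adjusted p = 1). Its Treg levels were 72.2, 70.3, 67.6 and 73.3 CPM in WT and 70.2, 71, 74.7 and 79 in Aim2-/-, which overlap. Cox6c was at 75, 65.5, 69.2 and 63.5 CPM in WT Tn and at 73.1, 70.6, 92.5 and 83.7 in Aim2-/- Tn. In Treg, Cox6c was at 122, 117, 120 and 121 CPM in WT and at 122, 120, 123 and 128 in Aim2-/-. Its Tn difference was thus carried by Aim2-/- libraries 3 and 4, and the interaction was -0.21 ± 0.12 (adjusted p = 1). Uqcrh gave -0.17 ± 0.13 (adjusted p = 1) and Sdhd -0.10 ± 0.11 (adjusted p = 1). The GC and length correction gave -0.19 for Atp5k, -0.11 for Uqcrh and -0.03 for Sdhd. The genotype and culture contrasts share libraries, so the values for a gene across them are not independent.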

How the data were processed

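RNA was measured in 16 libraries made with a stranded mRNA kit. The authors mapped 51-base single-end reads to GRCm38 with STAR and deposited, per library, the expected counts that RSEM assigned to 53090 genes, neither normalized nor filtered. Versions and the strand setting of the counting are not given in the sources used here, so genes with an overlapping partner on the other strand (such as Atp5j with Gabpa and Uqcrc2 with Pdzd9) are uncertain where reads were counted without strand. Groups and replicate numbers came from the titles. The file names number both Treg groups and part of Aim2-/- Tn differently, so the block and the check of pairing rest on the numbers in the titles. Expected counts were rounded, and genes that reached 10 counts in 4 or more libraries of a comparison were tested with edgeR 4.0.16 (quasi-likelihood, robust, TMM, two-sided) on the 8 libraries compared, or on all 16 for the interaction, with Benjamini-Hochberg adjustment over all genes and a threshold of 0.05. CPM values are TMM-scaled. Between 22516394 and 34533297 counts per library make 3 counts 0.0869 to 0.133 CPM, which covers counting error only. Of the 41 genes, 19 had a fractional count in at least 1 library. Such counts can come from reads shared with other genes. Uqcrc2, however, was fractional in 15 libraries and shared 0% of its 51-base words with other genes. The cause was not tested. Coordinates and exon lengths are from GENCODE M21 on GRCm38, which holds 98.9% of the genes. Promoters are from RefSeq.

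The members, the gene lists and the tests were chosen with earlier results of these data known. In each comparison the smallest p of each complex was named, in culture also the 3 largest rises and 3 lowest values, and of each further list the called gene that changed most. Alternatives were DESeq2 1.42.0, limma 3.58.1 (voom), RLE size factors, library totals, other filters, all libraries in one fit, a replicate block, a term parting replicates 1 and 2 from 3 and 4, a GC and length correction with and without the block, sums with named pseudogenes and leaving out each library. Sums with all rows that share 51-base words were added after seeing the data. The edgeR test was also run on counts simulated for the genotype contrast of Tn only. The planted changes were larger than any genotype difference of the members, so that run does not cover differences of their size.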

Additional observations from a re-analysis of the deposited data

Results flagged for a closer look

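Of 184 groups of 4 libraries examined (41 genes, 4 complex sums and Aim2 in each of the 4 groups), 5 held a library that stood apart from the other 3, by Dixon's ratio of its gap to the range (above its 95% critical value). Chance alone flags about 1 in 20 such groups. In 4 of the cases the library was WT Treg 4, which was the highest of its group. Sdhb was at 150 CPM there against 137 to 139 in the other 3 libraries (ratio 0.832), Uqcrq at 76.3 against 64.1 to 65.5 (0.888), Atp5d at 217 against 192 to 195 (0.869) and Atp5g3 at 291 against 270 to 273 (0.846). Aim2 was at 9.21 CPM in Aim2-/- Tn 1 against 6.44 to 6.85 in the other libraries of that group (0.853). The cause was not tested.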

How the results depend on the processing

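Under the 21 other settings of each culture contrast, 38 or 39 of the 41 genes passed in WT and 37 to 39 in Aim2-/- cells. Of all genes tested, 47.7 to 83.6% passed in WT and 50.4 to 82.2% in Aim2-/- cells under these settings. The lowest shares were those without a filter on low counts. No member that passed changed direction. The median log2 fold change moved beyond the spread between libraries with the GC and length correction, with and without the replicate block (0.91 in WT and 0.95 in Aim2-/- cells, each time). Leaving out 1 library at a time gave 0.77 to 0.89 in WT and 0.62 to 0.82 in Aim2-/- cells. Of these, the WT medians without WT Treg 1 (0.87) and without WT Treg 3 (0.89) also moved beyond that spread. So did the Aim2-/- median without Aim2-/- Tn 2 (0.62). The cause was not tested. Sign changes were seen only in genes that did not pass. Atp5l was at -0.03 in WT under both corrections and at -0.16 and -0.15 in Aim2-/- cells, and Atp5h was at -0.01 in Aim2-/- cells with at least 10 counts in every library. Leaving out 1 library gave -0.08 to 0.01 for Atp5e in WT, and -0.11 to 0.11 for Atp5h and -0.05 to 0.11 for Atp5l in Aim2-/- cells. In both genotype contrasts and in the interaction, 0 genes passed under every setting, with medians of 0.10 to 0.21 in Tn, 0.03 to 0.09 in Treg and -0.14 to -0.02 for the interaction.

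Same-numbered libraries did not deviate together throughout. The correlations of their deviations from the group means were 0.29, 0.05, 0.43 and 0.06 for libraries 1 to 4 in the genotype contrast of Tn, 0.6, 0.42, -0.01 and 0.54 in that of Treg, -0.02 to 0.17 for culture in WT and -0.03 to 0.13 for culture in Aim2-/- cells, and not every library matched best with its own number, so the numbers, which the file names do not share throughout, were not read as pairs. With the replicate block, 39 genes passed for culture in WT, 38 in Aim2-/- cells (Atp5e added, at -0.25) and 0 in the genotype contrasts and the interaction, where 8 genes in Tn and 7 in Treg had an unadjusted p below 0.05. The share of all genes at that p was not counted with the block.

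At 4 libraries a group, the standard errors in Tn were near 0.10 on the log2 scale, so that differences of that size between genotypes were not detectable. Larger ones were not called either, up to the largest, that of Uqcr11 in Tn (0.33, adjusted p = 0.47 in the edgeR test). A gene's missed threshold does not show that it was equal.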
